A study of Mus musculus with 6 samples.

Results

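The matrix metalloproteases (genes Mmp), the secreted ADAMTS proteases (genes Adamts) and their tissue inhibitors (genes Timp) were examined in cultures of primary mouse lung fibroblasts treated with a Hedgehog agonist. Members were all probe sets of the array whose platform annotation gives exactly 1 gene symbol made of Mmp, Timp or Adamts, a number and at most 1 letter. Where a gene had several, its probe set of highest mean signal was kept. This gave 44 genes of 22180 named genes on the array, of which 22 were Mmp, 18 Adamts and 4 Timp genes, read by 48 probe sets in all.

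The treated cultures received purmorphamine, a small molecule that activates Smoothened and so the Hedgehog pathway, at a dose the labels write as 5um (read as 5 µM). The control cultures received vehicle. Both groups were treated for 24 h, and each comprised 3 wells with 1 array per well. All cells came from whole lungs of wild-type C57BL/6 males aged 8 weeks, were enriched as fibroblasts from a digest and passaged at most 3 times. The labels do not say from how many mice or pools the wells came, so the tests use well-to-well spread alone, which may be technical. Values are the deposited log2 signals, and differences are purmorphamine minus vehicle on the log2 scale unless a fold is given.

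MMPs are zinc-dependent endopeptidases that are made as inactive precursors and together cleave most proteins of the extracellular matrix. ADAMTS proteases share the catalytic fold and carry thrombospondin repeats, and several cut the large proteoglycans aggrecan and versican. TIMPs bind the active site of MMPs, and TIMP3 also inhibits some ADAMTS proteases. Turnover of lung matrix is thus set by proteases and inhibitors together. Fibroblasts, macrophages and neutrophils are all known sources of these enzymes in lung.

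The label of the cultures was checked against markers. Fibroblast markers were bright, and 8 of 11 lay above the upper quartile of all genes (8.87). The same held for 12 of 12 macrophage and leukocyte markers, so the values are those of mixed cultures and are not assigned to a cell type. The array mean of the fibroblast list was 10.46 to 10.52 with purmorphamine and 10.13 to 10.22 with vehicle, and 8 of its genes rose and 1 fell. The array mean of the macrophage and leukocyte list was 11.68 to 11.74 with purmorphamine and 11.98 to 11.9998 with vehicle, and 1 of its genes rose and 5 fell. Of 9 neutrophil markers 0 passed the test described next (2 had an unadjusted p under 0.05), and the list averaged 5.88 to 5.91 with purmorphamine and 5.87 to 5.99 with vehicle, below the median of all genes (6.94). Of 6 endothelial markers 3 rose, and of 8 epithelial markers 1 rose. Of 6 smooth muscle markers 4 fell, of 5 mast cell markers 1 rose, and of 4 mesothelial markers 0 passed (1 had an unadjusted p under 0.05). For comparison, 14.3% of all genes passed the limma test described next in either direction, and 25.2% of those at or above the median signal. At or above that median lay 10 of 11 fibroblast, 12 of 12 macrophage and leukocyte and 6 of 6 smooth muscle markers. The same held for 4 of 6 endothelial, 4 of 8 epithelial and 0 of 5 mast cell markers. Whether the share of any list differed from these shares was not tested. The part that these lists have in the results below was not tested either. In whole cultures, fewer cells of a type and less RNA per cell cannot be told apart.

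Within the MMP family purmorphamine moved genes in opposite directions. The macrophage elastase gene Mmp12 and the stromelysin gene Mmp3 were about as much higher with purmorphamine (2.05-fold and 1.96-fold) as the gelatinase gene Mmp9 and Mmp27 were lower (2.20-fold and 1.95-fold). The Timp genes moved little, and their values are given after those of the proteases. The groups were compared with limma on all 22180 genes, and a gene was called at a Benjamini-Hochberg adjusted p under 0.05. Of the 44 members 9 were called higher and 4 lower, where 7.18% of all genes were called higher and 7.16% lower. The members called in either direction made up 29.5%, against 14.3% of all genes.

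By family, 7 Mmp genes were higher and 3 lower of 22, 2 Adamts genes were higher and 1 lower of 18, and 0 of 4 Timp genes were called. The Mmp genes called in either direction made up 45.5%, and those of the Adamts family 16.7%. The median difference was -0.01 over the Mmp genes and 0.01 over the Adamts genes, against -0.01 over all genes. The median size of a difference, without its sign, was 0.23 for Mmp genes, 0.07 for Adamts genes and 0.11 for all genes. The calls lay among the brighter members: all 13 called members lay at or above the median signal of all genes, where 27 members lie. That is 48.1% of these 27, against 25.2% of all genes that bright. The 17 dimmer members differed by -0.23 to 0.22, and 0 were called with limma (1 had an unadjusted p under 0.05), but RMA compresses changes of dim genes. The values of the 2 groups did not overlap in 21 members (47.7%), against 34.2% of all genes.

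**Figure D1:**
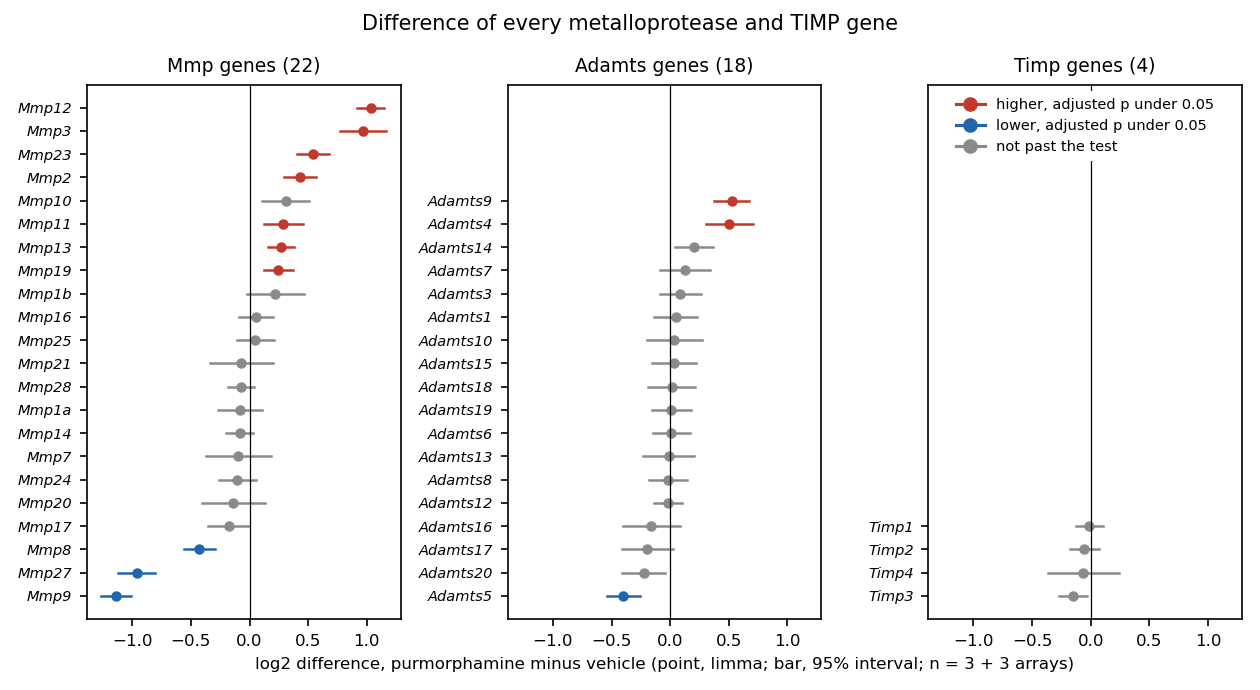
Log2 difference (purmorphamine minus vehicle, horizontal axis) of each of the 22 Mmp, 18 Adamts and 4 Timp genes, with points for the limma estimate from 3 arrays per group and bars for its 95% interval. Mmp genes spread from -1.14 to 1.03, Adamts genes from -0.40 to 0.52, and Timp genes stay between -0.15 and -0.01.

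The elastase and gelatinase genes held the largest rise and the largest fall of all 44 members. Mmp12 encodes the macrophage metalloelastase, which degrades elastin. Its signal was 12.88, 12.85 and 12.92 with purmorphamine and 11.84, 11.86 and 11.86 with vehicle. The purmorphamine wells differed by less than 0.1 and lay about 1 log2 unit above every vehicle well, a rise of 1.03 (SE 0.05, n = 3 per group, limma adjusted p = 8.84e-05). Mmp9 encodes gelatinase B, which cuts denatured and basement membrane collagen. It read 10.81, 10.83 and 10.80 with purmorphamine and 11.90, 12.02 and 11.92 with vehicle. All purmorphamine wells were low and close together, and the fall was 1.14 (SE 0.05, limma adjusted p = 8.84e-05).

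The other gelatinase gene, Mmp2, went the opposite way to Mmp9. It read 11.00, 11.05 and 10.98 with purmorphamine and 10.64, 10.58 and 10.50 with vehicle, a rise of 0.43 (SE 0.06, limma adjusted p = 0.00357). Mmp2 is a product of mesenchymal cells, and its precursor is activated at the cell surface by the membrane-type MMP encoded by Mmp14 together with the Timp2 protein. Mmp14 itself was bright and did not pass the test, at 12.13 ± 0.04 with purmorphamine and 12.21 ± 0.01 with vehicle (SD, n = 3 each). Its difference of -0.09 had a 95% interval of -0.20 to 0.03.

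Mmp3 encodes stromelysin-1, which cuts proteoglycans and laminin and activates other MMP precursors. It read 9.004, 9.07 and 8.79 with purmorphamine and 8.01, 7.91 and 8.03 with vehicle, a rise of 0.97 (SE 0.08, limma adjusted p = 6.91e-04). The lowest purmorphamine well, replicate 3, still lay well above the highest vehicle well. Mmp10 encodes the close paralog stromelysin-2, and probes may bind transcripts of both genes. It read 10.27, 10.38 and 10.28 with purmorphamine and 10.09, 9.82 and 10.09 with vehicle. The groups did not overlap, but the difference of 0.31 missed the threshold (limma adjusted p = 0.055). It passed under 3 of 9 alternative settings (adjusted p from 0.0035 to 0.021 in these, and from 0.0035 to 0.106 over all 9). With 1 array left out, Mmp10 passed in 0 of 6 limma fits (adjusted p from 0.073 to 0.144). Mmp11, the gene of stromelysin-3, an enzyme that furin activates inside the cell, read 7.73, 7.65 and 7.59 with purmorphamine and 7.45, 7.41 and 7.25 with vehicle. It was called at 0.29 (SE 0.07, limma adjusted p = 0.039), with 0.15 in its dimmer probe set. The Mmp11 call was lost without any 1 of the 6 arrays (adjusted p from 0.055 to 0.122) and on centring each array on its median (0.052).

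The 2 collagenase genes with a bright signal moved apart. Collagenases make the first cut in fibrillar collagen, and Mmp13 is the main interstitial collagenase of rodents. Mmp13 read 10.88, 10.87 and 10.90 with purmorphamine and 10.63, 10.62 and 10.61 with vehicle. The spread within either group was far smaller than the gap between them, and the rise was 0.26 (SE 0.05, limma adjusted p = 0.011). Mmp8, first known as the neutrophil collagenase, read 11.14, 11.05 and 11.01 with purmorphamine and 11.49, 11.46 and 11.53 with vehicle, a fall of 0.43 (SE 0.06, limma adjusted p = 0.00353). Mmp1a and Mmp1b, rodent collagenase genes that are close copies and uncertain as separate signals, were dim and did not pass (-0.08 and 0.22).

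Of the remaining MMP genes Mmp23, Mmp27 and Mmp19 were called. Mmp23 encodes a short MMP that lacks the hemopexin domain and has an immunoglobulin-like domain instead. It read 8.46, 8.51 and 8.54 with purmorphamine and 8.03, 7.89 and 7.97 with vehicle, a rise of 0.54 (SE 0.06, limma adjusted p = 0.00153). Mmp27, whose human protein is known to be retained in the endoplasmic reticulum, had 7.49, 7.34 and 7.33 with purmorphamine and 8.43, 8.31 and 8.31 with vehicle. Every purmorphamine well was low, and the fall of 0.96 (SE 0.07, limma adjusted p = 3.28e-04) was close in size to that of Mmp9. Mmp19, a secreted MMP made by several cell types, read 9.89, 9.86 and 9.79 with purmorphamine and 9.59, 9.58 and 9.64 with vehicle. Its rise of 0.25 (SE 0.05, limma adjusted p = 0.025) was past the test with 1 array left out only without purmorphamine replicate 3 (adjusted p from 0.042 to 0.088), and it missed with the replicate number as a block (0.068). The 5 membrane-type genes Mmp14, Mmp16, Mmp17, Mmp24 and Mmp25 differed by -0.18 to 0.05, and 0 were called with limma (1 had an unadjusted p under 0.05).

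**Figure D2:**
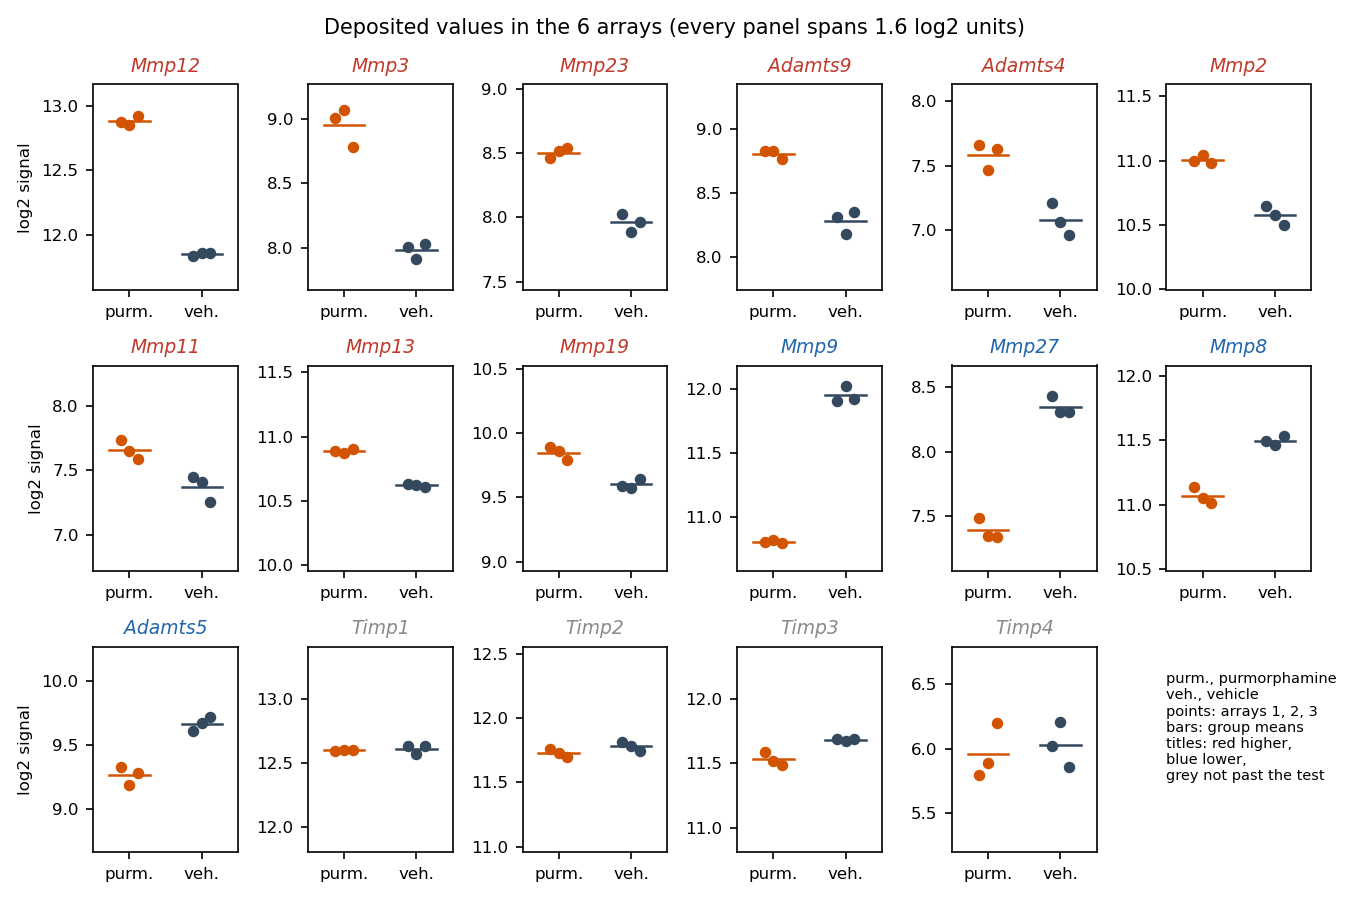
Deposited log2 signal in each of the 6 arrays for the 13 called members and the 4 Timp genes, with purmorphamine wells left of vehicle wells, bars at group means and the same vertical span of 1.6 log2 units in every panel. The groups are apart in all 13 called genes and overlap in Timp1, Timp2 and Timp4.

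On chromosome 9, 10 of the 22 Mmp genes lie side by side, in the order Mmp13, Mmp12, Mmp1b, Mmp3, Mmp1a, Mmp10, Mmp8, Mmp27, Mmp20 and Mmp7, with no other protein-coding gene between them in the RefSeq table of assembly GRCm38.p6. The 3 called rises, Mmp13 (0.26), Mmp12 (1.03) and Mmp3 (0.97), and the uncalled Mmp10 (0.31) lie in the first 6 places. The 2 called falls of the cluster, Mmp8 (-0.43) and Mmp27 (-0.96), are the next neighbours. This order was seen in 5 calls after their values were known and has no test, and the other 5 called Mmp genes, Mmp2, Mmp9, Mmp11, Mmp19 and Mmp23, lie elsewhere. The dim genes did not pass, with Mmp1b at 0.22, Mmp1a at -0.08, Mmp20, the tooth enamel protease gene, at -0.14, and Mmp7, the epithelial matrilysin gene, at -0.10. Transcripts of these close paralogs may cross-hybridise to each other's probes.

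**Figure D3:**
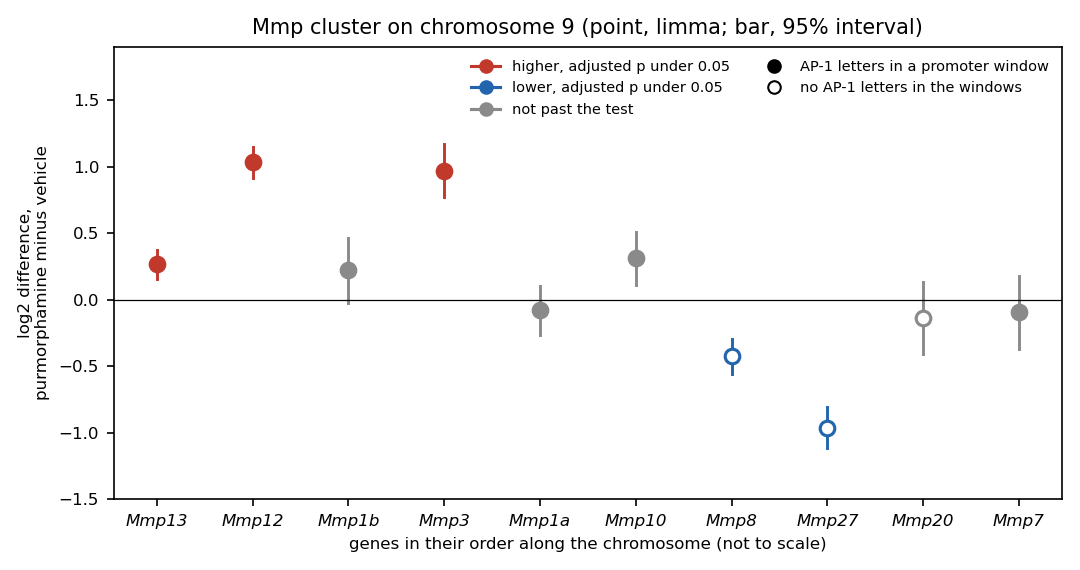
Log2 difference (purmorphamine minus vehicle, vertical axis) of the 10 Mmp genes of chromosome 9 in their order along it, with points for the limma estimate, bars for the 95% interval, and filled points where a promoter window of the gene holds the AP-1 letters. Of the called genes, Mmp13, Mmp12 and Mmp3 are higher and have filled points, and Mmp8 and Mmp27 are lower and have open points; the uncalled Mmp1a (-0.08) and Mmp7 (-0.10) have filled points below 0.

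Promoters are shown because several MMP promoters are known for an AP-1 element, the binding letters of Fos and Jun dimers, near a TATA box. Those printed are of the 5 called genes of the cluster and of Mmp10, a choice that follows their values. Windows of the dim, uncalled genes Mmp1a, Mmp1b, Mmp7 and Mmp20 are not printed. A window of each of Mmp1a, Mmp1b and Mmp7 also holds the AP-1 letters, and that of Mmp20 does not. Each window runs from 120 bases before the annotated start to 30 bases after it, from RefSeq on GRCm38.p6, plus strand, 5′ to 3′. Capitals mark the AP-1 letters TGAGTCA and the TATA letters TATAAA, each on either strand (TGACTCA and TTTATA on the other), and the 2 motifs overlap in none of the windows. Mmp12 has 2 annotated starts, and both are given.
Mmp13 (chr9:7272394-7272543): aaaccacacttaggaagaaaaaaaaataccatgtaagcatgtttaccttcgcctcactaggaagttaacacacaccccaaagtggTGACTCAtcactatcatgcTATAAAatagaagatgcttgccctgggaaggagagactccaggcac
Mmp12, upstream start (chr9:7344277-7344426): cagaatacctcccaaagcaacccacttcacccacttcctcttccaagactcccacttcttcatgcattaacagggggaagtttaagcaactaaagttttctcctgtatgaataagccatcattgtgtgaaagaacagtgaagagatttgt
Mmp12, downstream start (chr9:7347254-7347403): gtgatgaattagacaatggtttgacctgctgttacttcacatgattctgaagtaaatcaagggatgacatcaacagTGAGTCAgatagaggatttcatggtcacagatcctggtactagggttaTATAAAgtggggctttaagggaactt
Mmp3 (chr9:7445702-7445851): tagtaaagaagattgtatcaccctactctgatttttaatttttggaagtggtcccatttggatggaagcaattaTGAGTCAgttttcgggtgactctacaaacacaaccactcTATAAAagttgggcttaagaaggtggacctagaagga
Mmp10 (chr9:7502222-7502371): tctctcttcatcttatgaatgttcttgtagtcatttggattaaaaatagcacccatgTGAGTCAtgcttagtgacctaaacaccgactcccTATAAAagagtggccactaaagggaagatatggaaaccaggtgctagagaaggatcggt
Mmp8 (chr9:7558309-7558458): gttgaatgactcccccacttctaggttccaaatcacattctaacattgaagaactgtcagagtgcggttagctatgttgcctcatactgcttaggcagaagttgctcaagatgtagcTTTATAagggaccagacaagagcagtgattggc
Mmp27 (chr9:7571276-7571425): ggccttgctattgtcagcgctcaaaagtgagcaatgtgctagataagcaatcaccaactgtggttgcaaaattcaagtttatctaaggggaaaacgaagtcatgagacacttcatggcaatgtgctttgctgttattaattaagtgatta

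The AP-1 letters begin 35 bases before the start in Mmp13, 44 before the downstream start of Mmp12, 46 before that of Mmp3 and 63 before that of Mmp10. In each of these the TATA letters follow downstream. They begin 16 bases before the start in Mmp13, 7 before that of Mmp3 and 29 before that of Mmp10. In Mmp12 they begin at base 5 after the downstream start. The windows of Mmp8, Mmp27 and the upstream start of Mmp12 hold no AP-1 letters, and Mmp8 holds the TATA letters on the opposite strand. Over whole promoters of 300 bases (250 before the start and 50 after), 7 of the 10 genes of the cluster had the AP-1 letters, the other 3 of these 7 being the dim genes Mmp1a, Mmp1b and Mmp7. Adamts19 was left out of the scan. Of the 34 members outside the cluster 20 were scanned, among them Timp1, Timp2, Timp3, Mmp14, Mmp23 and Adamts9. The letters were in 0 of these 20. Adamts19 and the members without an annotated promoter are not in this count, and whether they hold the letters is not known here. Of all 27025 genes listed there, 5.95% had the AP-1 letters in a promoter and 15.67% the TATA letters (5.20% and 13.62% of all 32851 promoters). The TATA letters were in 9 of the 10 genes of the cluster and in 2 of the 20 others. A match of letters is a description of the sequence and not evidence of binding.

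Transcripts of the factors known to act on such elements were measured on the same arrays. All 14 measured genes for AP-1, Ets and related regulators lay at or above the median signal, and 4 were called (28.6%), close to the 25.2% of all genes that bright. Of these 1 rose and 3 fell: the AP-1 gene Fos fell by 0.90, the Ets family genes Etv5 and Ets1 fell by 0.68 and 0.36, and the AP-1 gene Jund rose by 0.41 (limma adjusted p from 5.60e-04 to 0.019). Jun (-0.14), Junb (-0.07), Fosb (-0.07) and Fosl2 (-0.09) did not pass. Of 14 genes for cytokines and receptors known to induce MMPs, 4 rose and 0 fell (28.6%, against 25.2% of all genes at or above the median signal, where all 14 lie). The groups did not overlap in 12 of them, 8 above and 4 below vehicle, where 53.8% of all genes that bright did not overlap. The interleukin genes Il1a and Il1b rose by 1.29 and 0.44, their receptor gene Il1r1 by 0.40 and the PDGF receptor gene Pdgfra, which is also in the fibroblast list, by 0.83 (limma adjusted p from 6.70e-05 to 0.019). Tnf (0.17), Il6 (-0.22) and Tgfb1 (-0.18) did not pass.

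The 3 called Adamts genes, 16.7% of the family and near the 14.3% of all genes, encode proteoglycanases, enzymes that cut aggrecan and versican. Of 7 such genes 2 rose and 1 fell, and of the 11 other Adamts genes 0 were called with limma (1, Adamts14, had an unadjusted p under 0.05). The difference between these subgroups was not tested, and many of the others were dim. Adamts9 read 8.82, 8.83 and 8.76 with purmorphamine and 8.31, 8.18 and 8.35 with vehicle, a rise of 0.52 (SE 0.06, limma adjusted p = 0.00240). Adamts4, the gene of aggrecanase-1, had 7.66, 7.46 and 7.63 with purmorphamine and 7.21, 7.06 and 6.96 with vehicle. Its groups lay apart, with the widest spread within a group among these called Adamts genes, and the rise was 0.51 (SE 0.08, limma adjusted p = 0.00876). Adamts5, the gene of aggrecanase-2, read 9.32, 9.19 and 9.28 with purmorphamine and 9.60, 9.67 and 9.72 with vehicle. The purmorphamine wells all lay below the vehicle wells, and the fall was 0.40 (SE 0.06, limma adjusted p = 0.00577).

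The aggrecanase genes Adamts4 and Adamts5 thus moved in opposite directions. The related proteoglycanase gene Adamts1 (0.05, 95% interval -0.14 to 0.23) and the bright gene Adamts12, whose protein cuts cartilage oligomeric matrix protein (-0.02, interval -0.13 to 0.10), did not pass. Adamts14, which encodes an enzyme that trims procollagen ends, had groups that did not overlap and a difference of 0.20 (limma adjusted p = 0.103), with 0.08 in its dimmer probe set. It passed with the dimmest genes left out (adjusted p = 0.046) and without vehicle replicate 3 (0.048), and adjusted p ran up to 0.254 over all 15 settings. The remaining Adamts genes differed by -0.23 (Adamts20) to 0.12 (Adamts7).

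The 4 Timp genes differed by -0.15 to -0.01, and 0 were called with limma (1, Timp3, had an unadjusted p under 0.05). Timp1, a gene known to be induced in injured lung, read 12.59, 12.60 and 12.61 with purmorphamine and 12.64, 12.57 and 12.63 with vehicle. Its groups overlapped, and the 95% interval of the difference ran from -0.13 to 0.10. Timp2 read 11.76, 11.73 and 11.69 with purmorphamine and 11.82, 11.78 and 11.74 with vehicle, with overlap and an interval of -0.17 to 0.07. For these bright probe sets, a change of the size seen in Mmp12 or Mmp9 lies far outside the intervals.

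Timp3, whose protein stays bound to matrix and also inhibits ADAM17 and aggrecanases, read 11.59, 11.52 and 11.49 with purmorphamine and 11.69, 11.68 and 11.69 with vehicle. Every purmorphamine well lay below the vehicle wells. The difference was small (-0.15, interval -0.27 to -0.03, limma adjusted p = 0.104), and it passed under 3 of 9 alternative settings (adjusted p from 0.0073 to 0.044 in these, and from 0.0073 to 0.158 over all 9). Timp4 was dim and variable, at 5.80, 5.89 and 6.20 with purmorphamine and 6.02, 6.21 and 5.86 with vehicle, and its interval of -0.37 to 0.24 leaves changes of moderate size undetectable.

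Of 22 measured activators and cell-surface regulators 5 rose and 2 fell (31.8% called). Of all genes 14.3% were called, and 25.2% of those at or above the median signal, where 18 of the 22 lie. All 7 called genes are among these 18, and whether the share differed was not tested. Thbs2, the gene of thrombospondin 2, which clears MMP2 from the cell surface by way of the receptor LRP1, rose by 0.99. The plasminogen activator genes differed, with Plat 0.75 higher and Plau 0.58 lower, and Reck, a membrane-anchored MMP inhibitor gene, rose by 0.36 (limma adjusted p from 4.13e-04 to 0.0070 for these genes). Of 11 ADAM protease genes 2 rose and 3 fell (45.5% called), and 9 of the 11 lie at or above the median signal. The 5 called genes are all among these 9. Adam8, a myeloid protease gene, was at -1.10, Adam10 at -0.37, Adam15 at -0.36, and Adam17, the sheddase of tumour necrosis factor, at 0.33. The macrophage and leukocyte list, of which 1 gene rose and 5 fell among 12, moved in the same wells, and its part in these values was not tested.

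Of 8 genes for ADAMTS-like proteins and ADAMTS processing 1 was called (12.5%, against 14.3% of all genes). This was Adamtsl3, which rose by 1.04 (SE 0.09, limma adjusted p = 6.52e-04). Adamtsl3 encodes a matrix protein that resembles ADAMTS proteases but has no catalytic domain. Of 21 matrix substrates 7 rose and 0 fell (33.3% called). Of all genes 14.3% were called, and 25.2% of those at or above the median signal, where 15 of the 21 lie. All 7 risen genes are among these 15, and whether the share differed was not tested. The risen genes included the versican gene Vcan, a target of the proteoglycanases (0.45), and the collagen gene Col1a2 (0.48). The proteoglycan gene Dcn (0.46) and the von Willebrand factor gene Vwf (0.50) also rose. The protease of von Willebrand factor, Adamts13, was dim and differed by -0.01. The aggrecan gene Acan (-0.14) and the elastin gene Eln (-0.03), whose products Adamts4 and Mmp12 proteins cut, did not pass. Of the 7 risen substrate genes, Col1a1, Col1a2, Col3a1 and Dcn are also in the fibroblast list and Vwf is in the endothelial list. Both lists averaged higher with purmorphamine, the endothelial list at 8.39 to 8.43 with purmorphamine and 8.15 to 8.18 with vehicle.

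**Figure D4:**
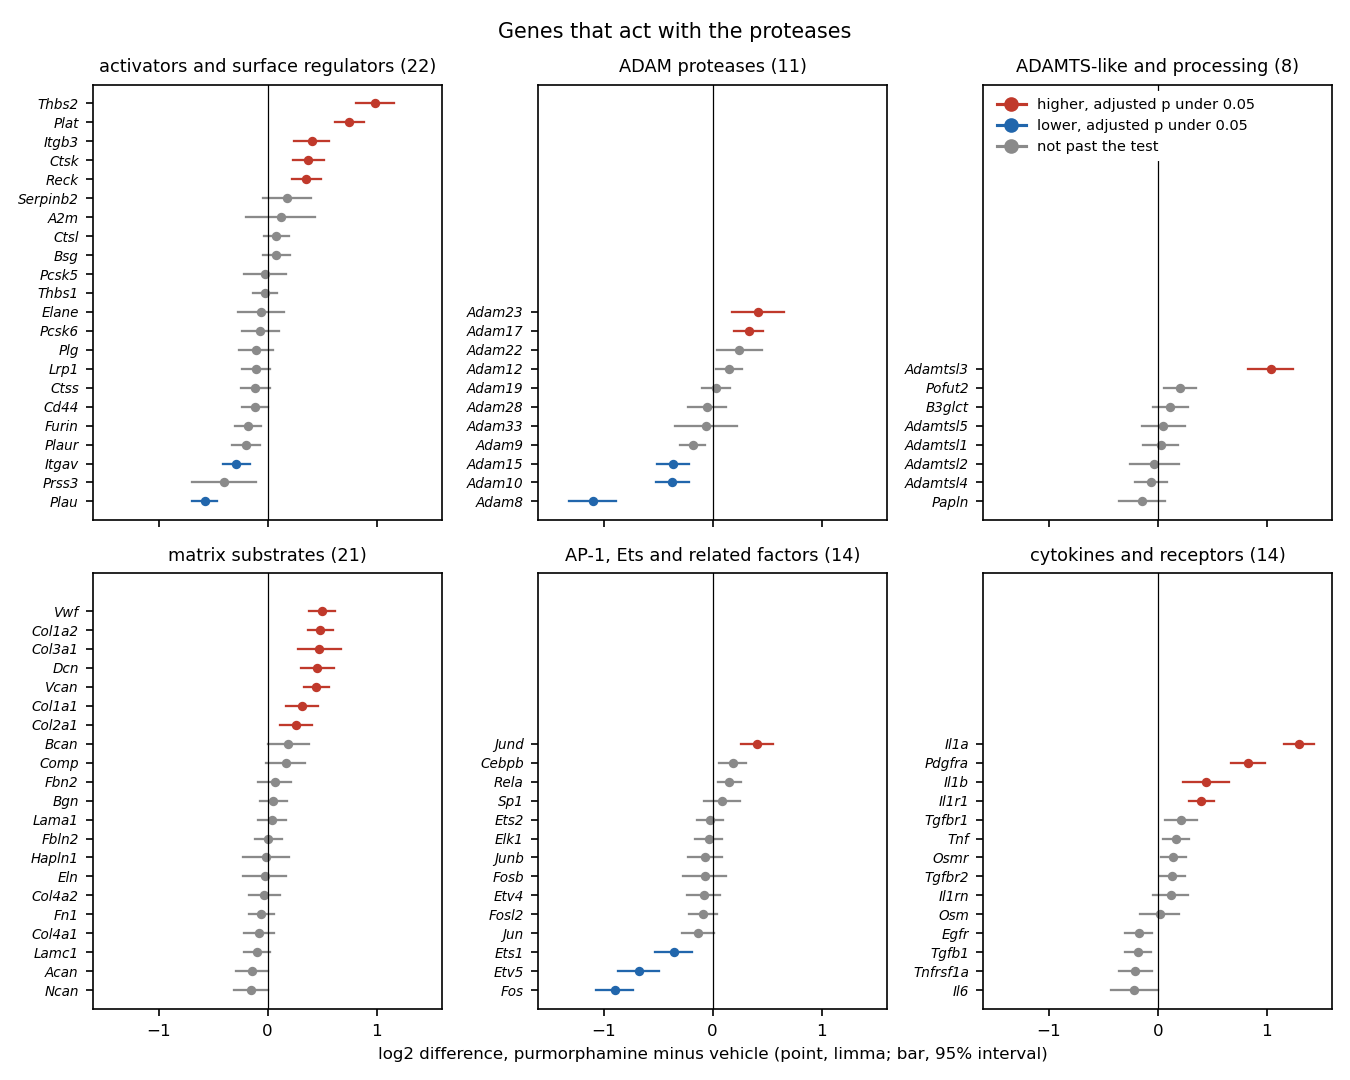
Log2 difference (purmorphamine minus vehicle, horizontal axis) of the measured genes of 6 lists that act with the proteases, with points for the limma estimate and bars for the 95% interval. Matrix substrates and cytokine genes have called genes on the higher side alone, and ADAM genes have called genes on both sides, from Adam8 at -1.10 to Adam23 at 0.41.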

How the data were processed

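Affymetrix arrays of 6 wells, 3 with purmorphamine and 3 with vehicle, were analysed. The authors' deposited values are log2 signals per probe set. The submitters' processing notes name oligo, RMA and limma, with versions not given in the sources used here. RMA equalises the distribution of the arrays and so hides any shift shared by all genes. The number of arrays limits the precision (median SE 0.07). Signals of different probe sets do not give relative amounts of transcript; quartiles of all genes were used only to call a signal bright or dim. Of 41345 probe sets, 23521 had 1 gene symbol, 1814 several and 16010 none. Identifiers of 44 of 44 members matched the RefSeq gene table of GRCm38.p6, with 0 symbols altered.

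The comparison was fitted on 22180 genes with limma 3.58.1 (lmFit, eBayes; R 4.3.3), without a block, two-sided, with Benjamini-Hochberg adjustment. Members, lists and tests were chosen with earlier results of these data known. By the naming rule, every called member is named, as are uncalled members above the upper quartile of signal and at most 4 called genes of each list with the smallest p; further genes were chosen after their values were seen. On simulated data with 22180 genes, 90 of 100 genes changed 2-fold and 49 of 100 changed 1.41-fold were recovered for this comparison, and 3 of 142 calls were false. The noise was independent between genes there. Only these genes were changed, a far smaller share than the 14.3% of all genes called in the data. The rates may therefore differ from those of the real comparison. Alternatives were centring on the array median, quantile normalization, array weights, an offset of 50 added to linear values, a filter that dropped a share of 0.333 of genes as dimmest, averaging of probe sets per gene, testing of every probe set, a robust eBayes with trend, a block for replicate number, each array left out, and an adjusted p under 0.1. Promoter sequences came from RefSeq. Of the 44 members, 30 had an entry that was scanned, and Adamts19 was left out of the scan by name. Python 3.11.15 and matplotlib 3.10.9 were used.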

Additional observations from a re-analysis of the deposited data

How the results depend on the processing

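Over the alternatives without a left-out array, 8 to 11 members were called higher, against 9 in the reported fit, and 4 to 5 lower, against 4. With 1 array left out, 7 to 8 were higher and 4 lower, while calls over all genes numbered 1967 to 2374, against 3181. All 13 called members kept their direction in all 15 settings with a fitted difference, and 11 of them, 7 higher and 4 lower, passed the test in each. The exceptions were Mmp11 and Mmp19, which missed it in 13 cases in all. Mmp10, Timp3 and Adamts14 passed it in 8 cases in all, and 0 results were reversed. Leaving out the dimmest genes kept 32 of 44 members. With the replicate number as a block, 8 members were higher and 4 lower, and 2432 genes were called. Same-numbered wells had correlations of 0.106, 0.0235 and 0.103 between their deviations from the group means. Wells of different numbers had -0.0949 to -0.00761, so every well correlated best with its own number. Not all same-number values were above 0.1, so the numbers were not taken as pairs. That limit was a choice without a test, and a weak pairing remains possible.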
